A study of Mus musculus with 2 samples.

Results

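Somatostatin, encoded by Sst, and the receptor genes Sstr1, Sstr2, Sstr3 and Sstr4 were followed across the cell types of the embryonic mouse cortex. These 5 genes, found by their symbols among the 32285 genes of the count matrices, were selected on their measured UMI levels across these cell types, which were already known. Those levels are therefore given as a description, without a test. Tests were made only within cell types, on splits of these types. The splits, too, were chosen with earlier results of these data known, so the tests are not independent of that choice. Sstr5, the remaining somatostatin receptor gene, and Cort, which encodes the related peptide cortistatin, are given for completeness.

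Somatostatin is a small peptide that is cut from a larger precursor, stored in secretory granules and released by neurons and endocrine cells. Its receptors are G protein-coupled receptors that signal through Gi/o proteins, which inhibit adenylyl cyclases and open GIRK potassium channels, and they are also linked to phosphotyrosine phosphatases. In the cortex, somatostatin marks a large class of inhibitory interneurons that are born in the medial ganglionic eminence (MGE) and migrate into the cortical wall. Excitatory neurons are born in the cortex itself. Radial glial cells (RGCs) line the ventricle and produce intermediate progenitor cells (IPCs), which divide to give newborn neurons that migrate outwards and settle in layers.

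The study set control embryos beside embryos in which Emx1-Cre, active in cortical progenitors and their offspring, removes the histone methyltransferase gene Dot1l. Cells of the dorsal telencephalon at embryonic day 16.5 were dissociated and profiled by droplet-based single-cell RNA sequencing. Only 2 libraries, labelled WT, entered the work described here and formed 1 group, named WT replicate 1 and WT replicate 6. The labels give their tissue as brain hemispheres. They do not say whether these WT embryos carried Emx1-Cre or a floxed Dot1l allele, nor whether each library came from 1 embryo, so p-values measure only the spread between these libraries. Conditional knockout cells were not analysed here, and no genotypes were compared.

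On GRCm38.p6 (the mm10 build, RefSeq), Sst (ENSMUSG00000004366) lies on the minus strand at chr16:23889573-23891342 and Sstr2 (ENSMUSG00000047904) on the plus strand at chr11:113619327-113626028. Sstr1 (ENSMUSG00000035431) lies at chr12:58211421-58216037, Sstr3 (ENSMUSG00000044933) on the minus strand at chr15:78537014-78549365, and Sstr4 (ENSMUSG00000037014) on the plus strand at chr2:148395377-148396764. Promoter windows are given for the ligand and for Sstr2, the receptor gene on which most results turn. Somatostatin transcription is the textbook case of control by the cAMP response element, and the element TGACGTCA, which reads the same on both strands, was searched for in the 250 bases before each start in RefSeq's promoter table. The capitals mark the element, and each window is printed 5′ to 3′ on the strand of its gene, from RefSeq on GRCm38.p6.
Sst promoter, chr16:23890874-23890903, minus strand: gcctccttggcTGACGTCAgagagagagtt
Sstr2 promoter, chr11:113619258-113619287, plus strand: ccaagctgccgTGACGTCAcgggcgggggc
Counted from the starts in that table, the element began 48 bases before Sst and 58 bases before Sstr2. The Sst start in the table lies inside the longer gene span given above, so the Sst window falls within that span, while the Sstr2 window lies outside its own. Of 32851 mouse promoters searched in the same way, 508 held it, or 1.55%. The 2 Sstr3 promoters and those of Sstr4 and Cort did not hold these letters in this window. Its shorter version, TGACG on either strand, which the full element contains, was present in 17.8% of all promoters and in those of Sst, Sstr2, Cort and 1 of the 2 Sstr3 promoters. A match is a description of the sequence and says nothing of whether the element was bound in these cells.

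WT replicate 1 held 14136 cells with 74930397 unique molecular identifiers (UMIs, each standing for 1 captured mRNA molecule), and WT replicate 6 held 13046 cells with 68964234 UMIs. After cells below 1500 or above 60000 UMIs, or with 10% or more mitochondrial UMIs, had been removed, 8139 and 8209 cells remained, with medians of 6924 and 6664 UMIs. The libraries shared 59 cell barcodes, 26 of them among the kept cells. Kept cells were assigned to a cell type by counting how many genes of fixed marker lists they expressed. This gave 317 and 316 RGCs, 461 and 498 IPCs, 535 and 519 newborn migrating neurons, 1544 and 1821 layered neurons, and 1332 and 1327 interneurons in WT replicates 1 and 6. Interneurons were shallower, with medians of 4254.5 and 3675 UMIs per cell, against 7460 to 9707 in the other 4 types. No gate took 32.5% and 29.9% of the kept cells. The libraries also held 233 and 198 striatal neurons and 257 and 262 cycling progenitors of the ganglionic eminences, cells that are not native to the dorsal telencephalon, and whether some interneurons came from the same tissue was not tested. Levels are in CPM, the UMIs of a gene after scaling the UMIs of each library's cells of a type to 1000000 in total, and each mean ± SD is over n = 2 libraries. Levels of different genes were not compared with each other.

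The ligand gene was concentrated in interneurons. Sst was measured at 187 CPM (1219 UMIs) in the interneurons of WT replicate 1 and 157 CPM (900 UMIs) in those of WT replicate 6, or 172 ± 21.3 CPM. Layered neurons followed at 5.77 and 3.71 CPM, RGCs at 5.04 and 3.87 CPM, newborn migrating neurons at 4.34 and 4.09 CPM and IPCs at 2.78 and 2.95 CPM. Interneurons stood above every other type in both libraries. Interneurons exceeded layered neurons by a ratio of 32.5 (95% exact interval 25.8 to 41.3) in WT replicate 1 and 42.4 (32.3 to 56.7) in WT replicate 6. Layered neurons, RGCs and newborn neurons overlapped with their neighbours in this order, whereas both IPC values lay below both values of newborn neurons. All intervals and detection limits given here cover counting error only.

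**Figure D1:**
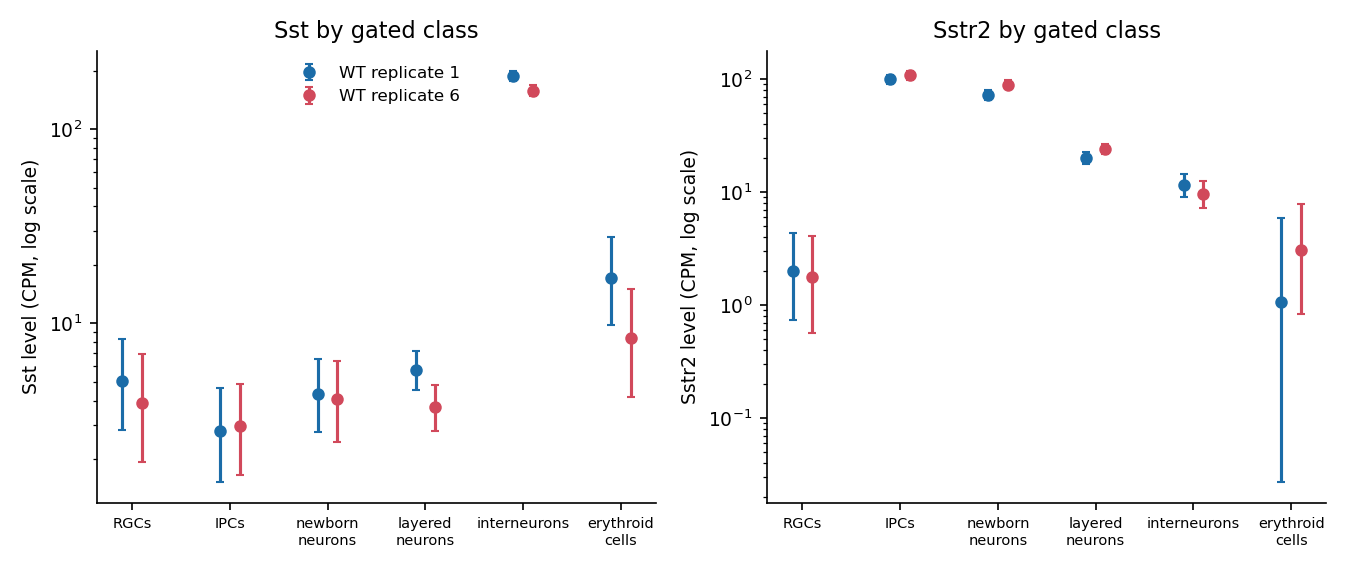
Levels of Sst (left) and Sstr2 (right) in the 5 main cell types and erythroid cells, in CPM on log axes, with 1 point per library and bars for 95% exact Poisson intervals. Sst was highest in interneurons, at 187 and 157 CPM, and Sstr2 in IPCs, at 99.4 and 108 CPM.

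The low Sst signal outside interneurons was set against erythroid cells, which should lack the gene. Each cell was thinned to 2000 UMIs, because cell types differed in depth. Sst was then detected in 6.92% of interneurons (163 of 2354 cells, 95% Wilson interval 5.97 to 8.02%, 305 shallower cells left out). It was detected in 2.81% of erythroid cells (1.58 to 4.97%), which had medians of 2953 and 3690 UMIs before thinning. The shares in RGCs (1.44%), newborn migrating neurons (1.44%), layered neurons (0.995%) and IPCs (0.522%) were all below that of erythroid cells and are read as background. Before thinning, the shares were 9.78% in interneurons, 4.74% in erythroid cells and 2.82 to 3.95% in the other 4 types.

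Within a library, a few cells carried most of the Sst transcripts. Of 8139 kept cells of WT replicate 1, 478 had an Sst UMI and 378 of these had exactly 1. In WT replicate 6, 404 of 8209 cells had one and 309 of these had exactly 1. Only 32 and 24 cells held at least 10 Sst UMIs, yet these held 68.1% and 61.7% of all Sst UMIs, with up to 157 and 198 in a single cell. Most of these Sst-rich cells were interneurons, 26 and 17 of them, and 24 and 13 were MGE-type. Lhx6, which encodes a transcription factor of the MGE lineage, was detected in 24 of the 32 and 17 of the 24 Sst-rich cells, and none was CGE-type. No RGC, IPC, newborn or layered neuron was Sst-rich. In IPCs the highest number was 1 UMI per cell in WT replicate 1 and 2 in WT replicate 6.

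**Figure D2:**
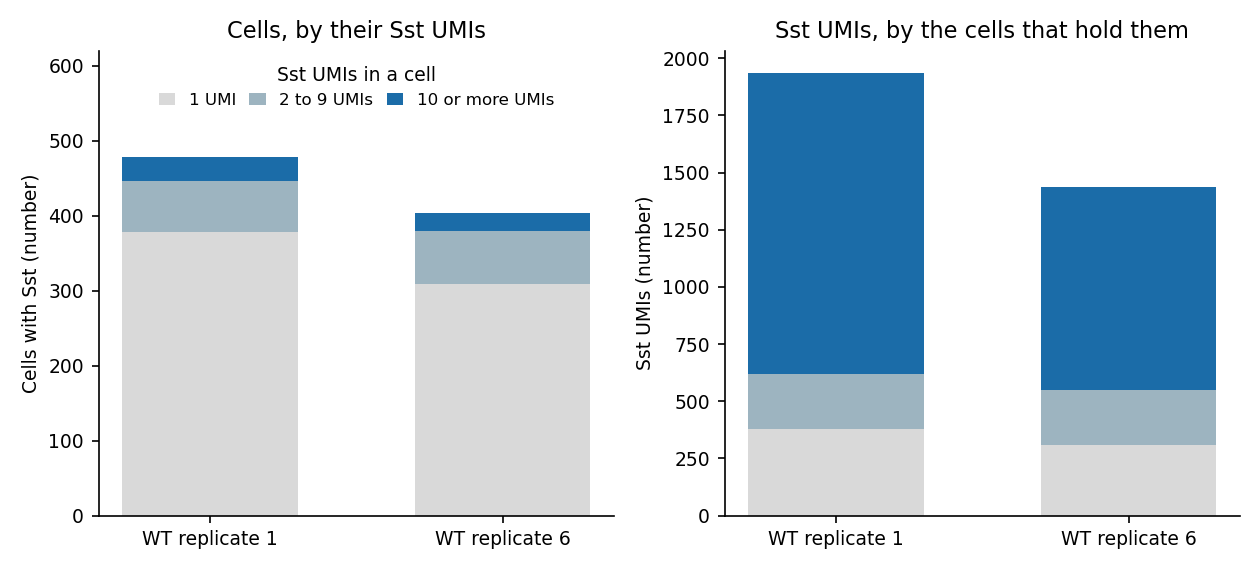
Stacked bars for WT replicates 1 and 6 of the number of cells with Sst (left) and of the Sst UMIs they hold (right), with colours for cells of 1, of 2 to 9 and of 10 or more Sst UMIs. Cells with 1 UMI were the most frequent, 378 and 309, while 32 and 24 cells with 10 or more held 68.1% and 61.7% of the UMIs.

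The question of which interneurons carried the ligand was addressed by splitting them into MGE-type and CGE-type cells. MGE-type cells expressed at least 2 markers of the MGE lineage, such as Lhx6 and Nxph1, and CGE-type cells, from the caudal ganglionic eminence, at least 2 of their own lineage, such as Prox1 and Sp8, with more markers of their own list than of the other. Sst stood at 480 CPM (1091 UMIs) and 345 CPM (716 UMIs) in the 463 and 472 MGE-type cells, and at 13.5 CPM (20 UMIs) and 5.94 CPM (8 UMIs) in the 276 and 292 CGE-type cells. Both MGE-type sums lay far above both CGE-type sums. The log2 difference was 5.38 with an SE of 0.26 and an adjusted p of 6.07e-08 in edgeR's quasi-likelihood test. In this comparison 9.55% of 10923 tested genes passed the same threshold, 5.05% higher and 4.50% lower in MGE-type cells. The share of thinned cells with an Sst UMI was 14.3% (12.1 to 16.8%) in MGE-type and 1.15% (0.526 to 2.48%) in CGE-type cells, the latter no higher than in erythroid cells. Interneurons that met neither definition, 593 and 563 cells, stood at 39.2 and 76.6 CPM. The summed level of the 6 striatal markers was 49.7 and 62.6 CPM in MGE-type and 121 and 83.9 CPM in CGE-type cells. The 5 newborn neuron markers summed to 463 and 639 CPM in MGE-type and 272 and 203 CPM in CGE-type cells. The part of either list in the result was not tested.

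Pathway genes were listed genes of peptide processing and storage, of receptor signalling and its regulation, and of the transcription factors of the Sst lineage. Of these, 34 that did not define the split were tested between MGE-type and CGE-type cells. In MGE-type cells 7 were higher and 3 lower, beside 5.05% higher and 4.50% lower among all tested genes. Sox6, a transcription factor gene of MGE-derived interneurons, was at 1358 ± 104 against 273 ± 35.1 CPM, which differed by 2.32 on the log2 scale (SE 0.12, adjusted p = 1.38e-07). Nkx2-1, which specifies the MGE, differed by 1.56 (SE 0.30, adjusted p = 0.00516), from 25.0 ± 1.97 against 8.41 ± 2.45 CPM. The falls were led by Kcnj3, which encodes a GIRK channel subunit, at 9.57 ± 2.64 against 48.4 ± 7.18 CPM (log2 difference -2.30, SE 0.25, adjusted p = 6.78e-05). Rgs16, a regulator of G protein signalling, followed at -1.89 (SE 0.47, adjusted p = 0.0251). The Gi/o alpha subunits had 1 member lower and 4 not called, and peptide processing genes 1 higher and 7 not called. The median log2 difference of the 34 genes was 0.18, against 0.00 over all tested genes.

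MGE-type cells were next divided by Sst itself, into 89 and 78 cells with an Sst UMI and 374 and 394 without. Sst is a description here, at 2112 and 1760 CPM in the Sst+ cells. Of the 89 and 78 Sst+ cells, 33 and 30 had a single UMI, and 24 and 13 had 10 or more. Of 36 tested pathway genes only Satb1 passed, and no listed gene of peptide processing, receptor signalling or its regulation did. Among all tested genes 2.04% were called, so the count of 1 in 36 was near the background. Satb1, a transcription factor gene needed for the maturation of somatostatin interneurons, was at 443 and 381 CPM in Sst+ and 212 and 206 CPM in Sst- cells. Its log2 difference was 0.95 (SE 0.15, adjusted p = 0.00743), where 2.04% of 9704 tested genes passed, 1.31% higher and 0.732% lower in Sst+ cells. Sox6 was at 1444 ± 137 against 1340 ± 166 CPM and did not pass (adjusted p = 0.901). Peptide processing and storage genes had 8 tested members, none called, with a median log2 difference of 0.38. Sst+ cells were deeper, with medians of 5496 and 4905.5 UMIs against 4110 and 3816. The newborn neuron markers summed to 559 and 715 CPM in Sst+ and 435 and 621 CPM in Sst- cells, and the part of either in the result was not tested.

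Across 28 sums, 14 cell types in each library, Slc32a1 was the gene whose level followed that of Sst most closely, among 13305 genes with at least 200 UMIs that define no cell type. Its Pearson r was 0.807 on log2(CPM + 1), and Slc32a1, which encodes the vesicular GABA transporter, stood at 66.5 CPM in interneurons and at 1.34 to 1.89 CPM in the other 4 main types. Lhx8, a LIM homeobox gene of the ventral forebrain (r = 0.780), Htr7, a serotonin receptor gene (r = 0.769), 4930555F03Rik (r = 0.733) and Rpp25 (r = 0.730) came next. The sums share 2 libraries and differ in depth, so these values only describe likeness.

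Sstr2 was highest in IPCs and newborn neurons. The IPC gate required Eomes but set no cap on newborn or layered neuron markers, of which gated IPCs had medians of 3 and 5 per cell. IPCs had 500 and 549 Sstr2 UMIs, at 99.4 and 108 CPM, and newborn migrating neurons 382 and 415 UMIs, at 72.2 and 89.4 CPM. Layered neurons stood at 19.9 and 24.0 CPM and interneurons at 11.5 and 9.61 CPM. RGCs had only 6 and 5 Sstr2 UMIs, at 2.01 and 1.76 CPM. In this order no type overlapped with the next in either library. The ratio of IPCs to RGCs was 49.3 (95% exact interval 22.5 to 135) in WT replicate 1 and 61.3 (26.1 to 190) in WT replicate 6. At these gate thresholds, IPCs exceeded newborn neurons by a smaller ratio of 1.38 (1.20 to 1.58) and 1.21 (1.06 to 1.37), an order that turned with other gates. Newborn neurons exceeded layered neurons by 3.62 (3.09 to 4.25) and 3.73 (3.23 to 4.31).

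The level of Sstr2 in the neuronal types depended on how cells were assigned to them. With Leiden clusters named by the same markers in place of gates, newborn neurons stood at 116 instead of 80.8 CPM, and layered neurons stood at 6.74 instead of 21.9 CPM. The cluster named layered neurons held only 530 cells, against 3365 gated cells. The largest clusters, of 1252 and 1042 cells, were given no name, so clusters and gates compared different sets of cells. RGCs stood at 3.15 CPM by clusters, instead of 1.89. IPCs stood at 103 CPM by clusters, below newborn neurons. With gates that required 1 more marker, newborn neurons stood at 108 and IPCs at 98.7 CPM, so the order of IPCs and newborn neurons turned with the gate thresholds, which were set after seeing the data.

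In single cells, Sstr2 was detected in 58.4% and 57.6% of IPCs (269 of 461 and 287 of 498 cells). Among the positive IPCs, 131 and 134 had 1 UMI and 138 and 153 had more, with no cell above 7. Thinned to 2000 UMIs, the share was 18.6% of IPCs (16.3 to 21.2%), 15.7% of newborn migrating neurons (13.6 to 18.0%) and 5.21% of layered neurons (4.51 to 6.02%). It was 1.78% of interneurons (1.32 to 2.40%) and 0.481% of RGCs (0.164 to 1.40%). Erythroid cells gave 0.767% (0.261 to 2.23%), so RGCs were at background and the interval of interneurons overlapped it after thinning. Pooled over both libraries without thinning, interneurons stood at 10.6 CPM (exact interval 8.88 to 12.6) and erythroid cells at 2.22 CPM (0.722 to 5.19). These intervals did not overlap, nor did those of WT replicate 1 alone (9.07 to 14.5 and 0.0270 to 5.95 CPM). Those of WT replicate 6 alone did (7.24 to 12.5 and 0.831 to 7.81 CPM). The pooled interval of interneurons also overlapped those of mural cells (10.5 CPM, 6.52 to 16.1) and endothelial cells (7.75 CPM, 4.34 to 12.8). It overlapped that of fibroblasts (6.37 CPM, 3.71 to 10.2) but not that of microglia (2.32 CPM, 0.479 to 6.79). Interneurons were thus above erythroid cells when pooled, but not set apart from every other type outside the neuronal lineages. The unthinned shares were 58.0% in IPCs, 41.9% in newborn neurons, 13.0% in layered neurons, 4.06% in interneurons, 1.74% in RGCs and 1.03% in erythroid cells.

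**Figure D3:**
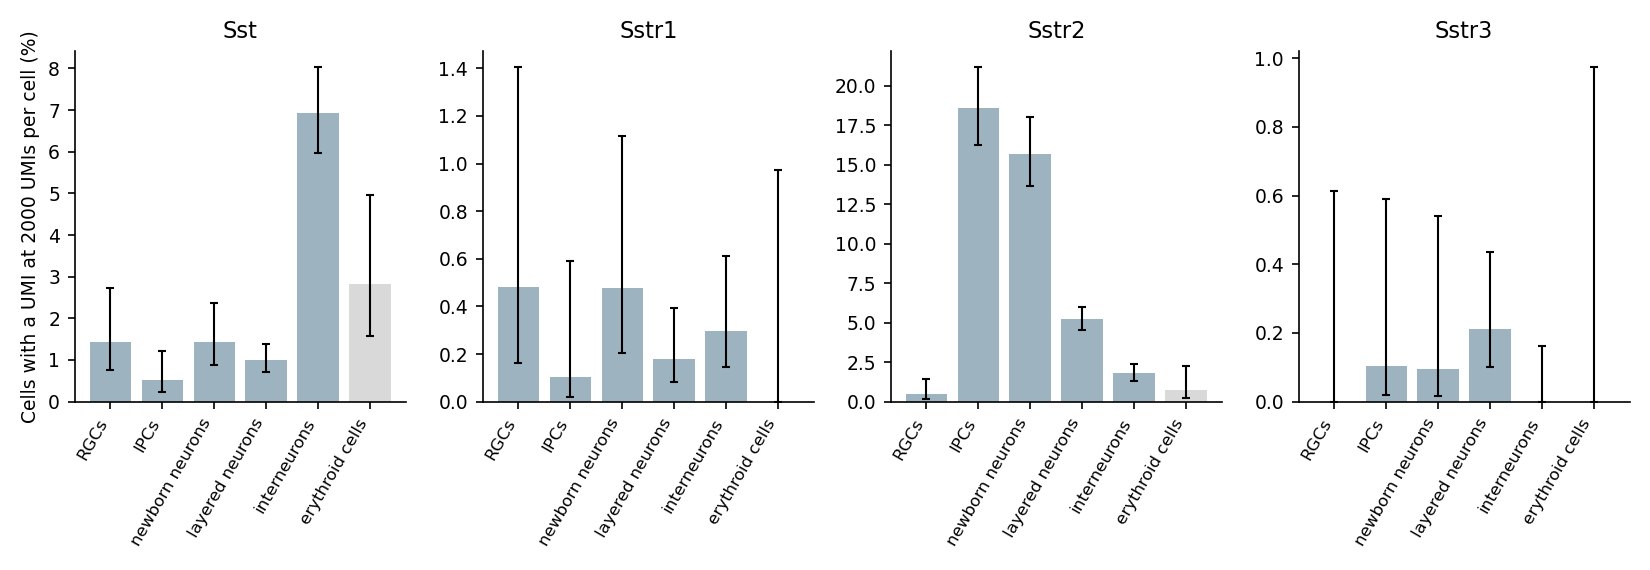
Share of cells with at least 1 UMI of Sst, Sstr1, Sstr2 and Sstr3 after thinning each cell to 2000 UMIs, in percent on an axis of its own for each gene, for the 5 main cell types (blue) and erythroid cells (grey), with 95% Wilson intervals over both libraries. Sst reached 6.92% in interneurons and 2.81% in erythroid cells, whereas Sstr2 reached 18.6% in IPCs and 0.767% in erythroid cells.

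To see where within the IPCs Sstr2 was expressed, cycling cells, with at least 3 of 7 cell-cycle markers, were compared with cells that had none. Sstr2 was lower in cycling IPCs, at 65.0 and 67.7 CPM (100 and 90 UMIs), than in non-cycling IPCs, at 119 and 121 CPM (259 and 266 UMIs). The values did not overlap. The log2 difference was -0.82 (SE 0.13, adjusted p = 0.00199 in edgeR's quasi-likelihood test), and 21.5% of 10956 tested genes passed, 8.06% lower and 13.4% higher in cycling cells. Cycling IPCs were deeper, with medians of 13082.5 and 11683 UMIs against 8947 and 8313.5. They also carried less of the newborn neuron markers, 1722 and 1548 against 3636 and 4122 CPM for all 5 summed, and more of the 6 RGC markers, 441 and 390 against 310 and 264 CPM. Neurod1, a neuronal differentiation gene, was detected in 41.1% and 46.5% of cycling and 54.3% and 50.4% of non-cycling IPCs. Among IPCs without any Neurod1 UMI, a comparison added after seeing the data, the difference was -1.24 (adjusted p = 0.00156), and the part of the other lists was not tested.

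Of the pathway genes, 31 were tested between cycling and non-cycling IPCs, of which 2 were higher and 5 lower in cycling cells. Among all tested genes 21.5% were called, so the count of 7 in 31 was near the background. Adcy2, an adenylyl cyclase gene, was at 9.99 ± 2.42 against 2.51 ± 0.31 CPM (log2 difference 2.01, SE 0.46, adjusted p = 0.0157). Pcsk2, which encodes a prohormone convertase, was at 17.5 ± 0.82 against 7.55 ± 1.02 CPM (1.24, SE 0.31, adjusted p = 0.0224). Adcy5, another adenylyl cyclase gene, was lower by the largest margin (-1.49, SE 0.41, adjusted p = 0.0328), but the libraries gave -2.27 (WT replicate 1) and -0.60 (WT replicate 6). Without the filter on low counts its adjusted p was 0.0595. Scg5, which encodes a secretory granule protein, was at 113 ± 2.29 against 207 ± 14.2 CPM (-0.85, SE 0.11, adjusted p = 9.44e-04). Peptide processing genes had 3 members lower and 1 higher of 7 tested. The median of the 31 genes was -0.06, against -0.02 over all tested genes.

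IPCs were then divided by Neurod1, which rises as they turn into neurons and which the gate of newborn migrating neurons required. Sstr2 was at 116 and 119 CPM in the 225 and 246 Neurod1+ IPCs and at 81.5 and 95.1 CPM in the 236 and 252 Neurod1- IPCs. The groups did not overlap and differed by 0.45 on the log2 scale (SE 0.11, adjusted p = 0.0379), where 9.82% of 11577 tested genes passed, 5.88% higher and 3.94% lower in Neurod1+ IPCs. The call was lost with DESeq2 (adjusted p = 0.360), without TMM scaling (0.0532) and without the filter on low counts (0.0639, edgeR). Among IPCs with no cycling marker, a comparison added after seeing the data, the difference was 0.26 (adjusted p = 0.310, edgeR). Neurod1+ IPCs carried more of the newborn neuron markers, Neurod1 included, at 4266 and 4096 CPM for all 5 summed against 1467 and 2063 CPM in Neurod1- IPCs, where Neurod1 was the 1 marker at 0. The 13 layered neuron markers summed to 2790 and 2921 against 2201 and 2345 CPM, and the 6 RGC markers to 237 and 220 against 500.1 and 453 CPM. The part of these lists in the result was not tested.

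Peptide processing and storage genes rose with Neurod1 in 5 of 7 tested members, with none lower and a median log2 difference of 0.56, beside 5.88% higher and 3.94% lower among all tested genes. These were Chgb, Chga, Scg3, Pam and Cpe, named here after their values were seen, of which Pam differed by 0.71 in WT replicate 1 and 0.34 in WT replicate 6. Chgb, which encodes the granule protein secretogranin 1, was at 23.2 ± 3.76 against 9.09 ± 4.03 CPM (log2 difference 1.39, SE 0.31, adjusted p = 0.0296). Adcy5 was higher by 1.17 (SE 0.29, adjusted p = 0.0437). The 2 genes that fell were Sox6 (-0.43, SE 0.10, adjusted p = 0.0390) and Gnai2, which encodes a Gi alpha subunit (-0.39, SE 0.10, adjusted p = 0.0453), the latter at an adjusted p of 0.0765 without the filter. In all, 7 of 32 tested pathway genes were higher and 2 lower, against the same background, with a median of 0.31 against 0.00 over all tested genes.

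RGC markers in IPCs gave a further description, chosen after seeing the data. IPCs with no RGC marker (73 and 128 cells) had Sstr2 at 127 and 126 CPM, and IPCs with at least 2 of the 6 RGC markers (230 and 224 cells) at 82.7 and 87.7 CPM. Even the latter stood above both values of gated RGCs, 2.01 and 1.76 CPM. Within RGCs themselves, the 117 and 120 cycling cells had 1 and 0 Sstr2 UMIs and the 109 and 100 non-cycling cells 3 and 1. Sstr2 did not reach the count needed for a test there, and a difference was not detectable at this depth. In that comparison 15.0% of 10026 genes passed, 8.19% higher and 6.85% lower in cycling RGCs, and of 23 tested pathway genes 5 were lower and none higher in cycling RGCs. They were led by Maf (log2 difference -2.07, adjusted p = 0.0185, with -2.93 in WT replicate 1 and -0.92 in WT replicate 6) and by Cpe, which encodes carboxypeptidase E (-1.96, adjusted p = 4.98e-05), both in edgeR's test.

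**Figure D4:**
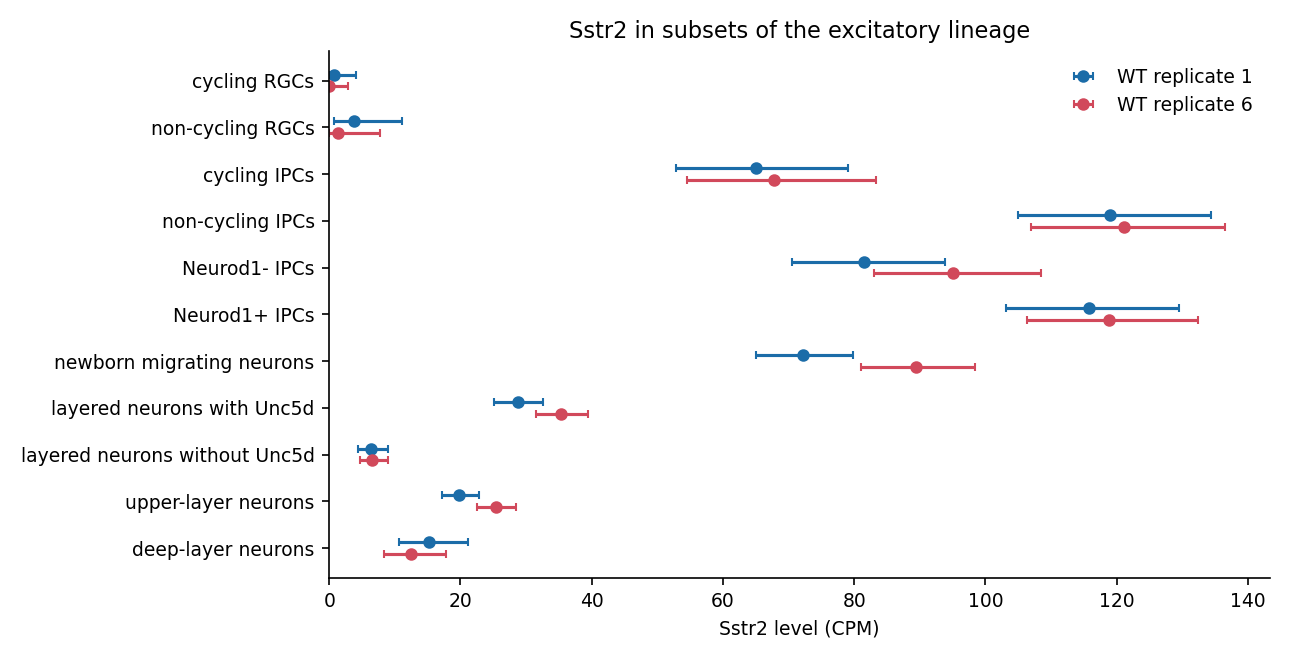
Sstr2 level in CPM in subsets of RGCs, IPCs and layered neurons and in newborn migrating neurons, with 1 point per library and bars for 95% exact Poisson intervals. Sstr2 was at 65.0 and 67.7 CPM in cycling and 119 and 121 CPM in non-cycling IPCs, and at 6.39 and 6.53 CPM in layered neurons without Unc5d.

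Layered neurons were split into deep-layer cells (274 and 279) and upper-layer cells (1090 and 1351) by which layer markers they expressed. Sstr2 was at 15.2 and 12.4 CPM in deep-layer and 19.8 and 25.4 CPM in upper-layer neurons. The difference on the log2 scale was -0.71 (SE 0.21, adjusted p = 0.0419 in edgeR's quasi-likelihood test), in a comparison where 19.4% of 13261 tested genes passed, 11.7% higher and 7.77% lower in deep-layer neurons. It rested largely on WT replicate 6, which gave -1.01 alone, while WT replicate 1 gave -0.36 alone. The call was lost with DESeq2 (adjusted p = 0.170) and with only cells of 3000 to 30000 UMIs and less than 5% from mitochondrial genes (-0.53, adjusted p = 0.214, edgeR).

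Upper-layer neurons also carried more of the newborn neuron and IPC markers. The 6 IPC markers summed to 112 and 124 CPM in upper-layer and 61.4 and 42.4 CPM in deep-layer cells, with 1 of 6 at 0 in each, and their part in the result was not tested. The 5 newborn neuron markers summed to 1490 and 1719 CPM in upper-layer and 330 and 346 CPM in deep-layer cells, with 1 of 5 at 0 in the former and 2 and 1 of 5 in the latter. Unc5d, a netrin receptor gene of that list, was detected in 72.2% and 70.5% of upper-layer and 26.6% and 28.3% of deep-layer cells. Among cells with no Unc5d UMI, a comparison added after seeing the data, the Sstr2 difference was -0.31 (adjusted p = 0.706, edgeR). Over all layered neurons, Sstr2 stood at 28.7 and 35.3 CPM in cells with Unc5d and at 6.39 and 6.53 CPM in cells without, ratios of 4.50 (95% exact interval 3.13 to 6.65) and 5.40 (3.85 to 7.78). This last contrast was also chosen after seeing the data and is not tested. Sst was at 4.66 and 4.28 CPM in deep-layer and 5.49 and 3.86 CPM in upper-layer neurons, with overlapping values (log2 difference -0.06, SE 0.36, adjusted p = 0.933, edgeR).

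**Figure D5:**
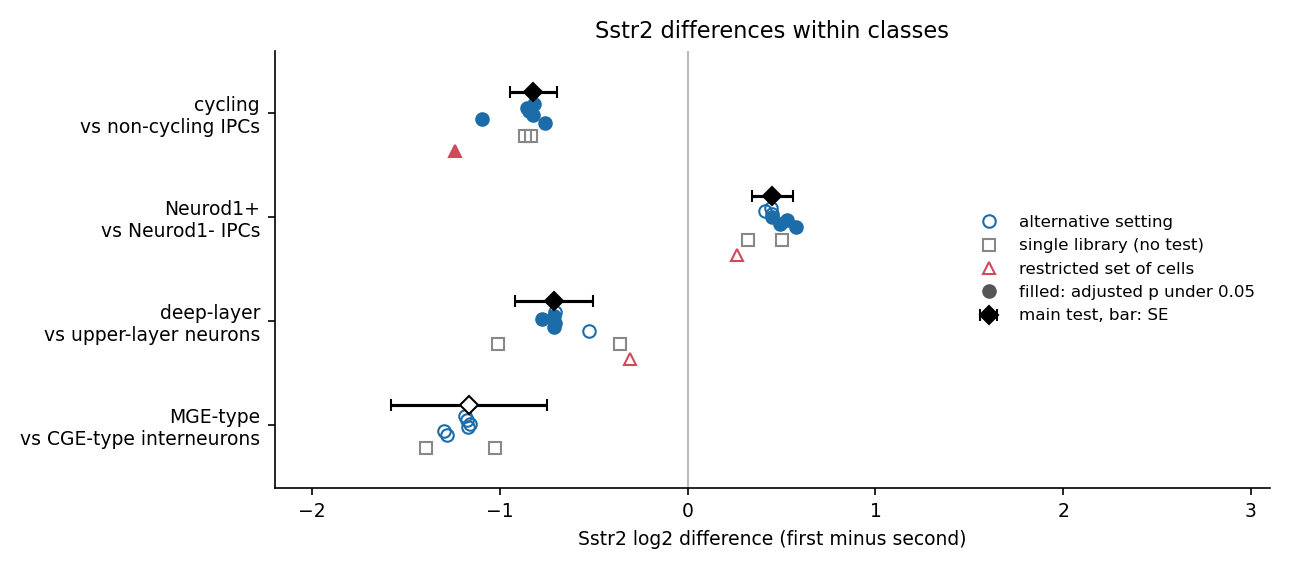
Log2 difference of Sstr2 in 4 comparisons under each processing setting. Diamonds give the reported value with its SE, circles the alternatives, triangles the comparisons restricted to cells without Neurod1, a cycling marker or Unc5d, and squares single libraries, which have no test, and filled symbols have an adjusted p under 0.05. The cycling IPC difference of -0.82 stayed called under every tested alternative, while the Neurod1 (0.45) and layer (-0.71) differences lost their call under several.

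Pathway genes differed between the layers in both directions. Of 38 tested pathway genes, 12 were higher and 6 lower in deep-layer neurons, beside 11.7% higher and 7.77% lower among all tested genes, with a median log2 difference of 0.20 against -0.01 over all tested genes. Pcsk2 was at 144 ± 0.68 against 10.5 ± 0.89 CPM (log2 difference 3.77, SE 0.10, adjusted p = 1.28e-07). Rgs4, a regulator of G protein signalling, was at 13.4 ± 3.42 against 1.01 ± 0.16 CPM (3.72, SE 0.34, adjusted p = 8.94e-05). Pam, which encodes the enzyme that amidates peptides, was higher in upper-layer neurons, at 389 ± 19.4 against 132 ± 9.51 CPM (-1.56, SE 0.09, adjusted p = 5.91e-06). Sox6 was lower in deep-layer cells as well (-0.86, SE 0.25, adjusted p = 0.0398).

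In interneurons Sstr2 was sparse. MGE-type cells had 15 and 8 Sstr2 UMIs, at 6.59 and 3.85 CPM, and CGE-type cells 20 and 14 UMIs, at 13.5 and 10.4 CPM. The values did not overlap, but the difference did not pass the test (log2 difference -1.17, SE 0.41, adjusted p = 0.113 in edgeR, 0.0723 to 0.647 over its alternatives). Of 138 and 122 interneurons with an Sst UMI, 3 and 2 also had an Sstr2 UMI.

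Rbfox3, which encodes the neuronal nuclear protein NeuN, was the gene closest to Sstr2 over the same 28 sums (r = 0.891). It stood at 359 CPM in IPCs, 282 in newborn neurons, 162 in layered neurons, 101 in interneurons and 13.4 in RGCs, the same order as Sstr2. Gated IPCs also carried newborn and layered neuron markers, as given above, and the part of such cells in this order was not tested. Cplx2, a complexin gene of synaptic vesicle release (r = 0.862), Mllt3 (0.854), Shf (0.849) and Igfbpl1 (0.847) came next.

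Sstr1 was seen at low counts in every main type, 52 and 68 UMIs in all kept cells. RGCs had 6 and 4 UMIs, at 2.01 and 1.41 CPM, and interneurons 8 and 8, at 1.23 and 1.40 CPM. Layered neurons had 11 and 20 UMIs (0.814 and 1.35 CPM), newborn neurons 4 and 3 (0.756 and 0.646 CPM) and IPCs 0 and 4 (0 and 0.786 CPM). The values of interneurons overlapped those of layered neurons, and those of newborn neurons overlapped those of IPCs. The values of RGCs lay above those of interneurons by less than these counts can separate. Within interneurons, 7 and 6 of the UMIs came from MGE-type and 0 and 1 from CGE-type cells.

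Part of the Sstr1 signal in interneurons lay in cells that also carried the ligand. Sst+ MGE-type cells had 6 and 3 Sstr1 UMIs (11.6 and 7.37 CPM), and Sst- MGE-type cells, several times more numerous, had 1 and 3 (0.569 and 1.80 CPM). Their ratio was 20.4 (95% exact interval 2.48 to 939) in WT replicate 1 and 4.11 (0.550 to 30.6) in WT replicate 6, so the interval included equality in the latter. Sstr1 did not pass the filter on low counts. Without that filter its log2 difference was 2.84 (adjusted p = 0.0955, edgeR). Of 6 and 8 interneurons with an Sstr1 UMI, 4 and 3 also had an Sst UMI, and Sst+ cells were the deeper ones, as given above.

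Sstr3 had 36 and 43 UMIs in all kept cells and was seen mostly in excitatory neurons. Newborn neurons had 7 and 9 UMIs (1.32 and 1.94 CPM), layered neurons 11 and 19 (0.814 and 1.28 CPM), and IPCs 3 and 4 (0.596 and 0.786 CPM). RGCs had 1 and 0. No Sstr3 UMI was found in 2659 interneurons, which allows a share of up to 0.113% of cells with a UMI and a level of up to 0.245 CPM. The level of newborn neurons was 1.63 ± 0.44 CPM, and 2.72 CPM where 1 more marker was required. Upper-layer neurons had 10 and 18 UMIs and deep-layer neurons 1 and 1, at 1.02 and 1.61 against 0.424 and 0.428 CPM, too few for a test. Of the cells with an Sstr3 UMI, Sstr2 was also seen in 3 of 3 and 2 of 4 IPCs, 3 of 7 and 5 of 9 newborn neurons, and 4 of 11 and 4 of 18 layered neurons.

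Sstr4 gave 3 UMIs in all kept cells, in 1 Sst+ MGE-type interneuron, 1 striatal neuron and 1 fibroblast. In RGCs, IPCs, newborn neurons and layered neurons it was not seen, which allows at most 0.516, 0.296, 0.302 and 0.106 CPM. Sstr5 gave 1 UMI, in a microglial cell. Cort gave 23 and 19 UMIs, 9 of them in interneurons (0.713 ± 0.514 CPM) and 9 in layered neurons (0.317 ± 0.029 CPM), too few to order the types.

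Ligand and receptor transcripts met in single cells mainly where Sst was at background. Of 14 and 13 IPCs with an Sst UMI, 9 and 7 had an Sstr2 UMI, beside 58.4% and 57.6% of all IPCs. Of 23 and 18 newborn neurons with an Sst UMI, 14 and 13 had an Sstr2 UMI, beside 222 of 535 and 220 of 519 of all newborn neurons. Of 70 and 53 layered neurons with an Sst UMI, 10 and 7 had an Sstr2 UMI, beside 195 of 1544 and 241 of 1821 of all layered neurons. The IPCs and newborn neurons with Sst held 1 or 2 Sst UMIs each. Whether deeper cells account for the shared detection was not tested.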

How the data were processed

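Single cells of the dorsal telencephalon of WT embryos were profiled in 2 droplet libraries. The submitters' processing notes name Cell Ranger 7.0.0 and mm10. What the authors deposited are UMI counts, neither normalized nor filtered beyond cell calling, for each gene in each called cell. The annotation and whether intronic reads were counted are not given in the sources used here, and intronic reads would add to genes with long introns. Between 32.3% (Sstr2) and 100% (Sstr4) of each member's GENCODE M39 canonical transcript span is exonic, so levels were compared within a gene only.

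The members, gene lists and splits were chosen with earlier results of these data known, and gate thresholds were set after seeing the data, without use of the members. Gates required 3 of 6 markers for RGCs, IPCs (with Eomes) and interneurons, and 3 of 5 for newborn neurons (with Neurod1, without Eomes). Layered neurons required 4 of 11 layer markers plus Neurod2 or Neurod6. Some markers of other lineages were capped, but for IPCs only interneuron markers were, at 1. Gated IPCs had medians of 1 RGC marker, 3 newborn neuron markers and 5 layer markers. Cells at the lowest number allowed were 25.3% of RGCs, 27.2% of IPCs, 55.5% of newborn neurons, 22.3% of layered neurons and 31.4% of interneurons. Doublets stayed in the main values. As an alternative, the 920 and 857 cells with the largest share of simulated doublets among their nearest neighbours were left out.

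Cells are not replicates, so counts were summed per library and subclass and compared as 2 sums against 2 with edgeR 4.0.16 (R 4.3.3; quasi-likelihood test, two-sided, TMM, filterByExpr). P-values were adjusted by Benjamini-Hochberg over all genes tested and called under 0.05. The 2 sums of a library come from the same sample, which pairs them, and their deviations correlated across genes with r of 0.205 to 0.305 in the 6 comparisons. The fit without this block is reported. DESeq2 1.42.0, other scalings, filters and gates were alternatives. The test was also run on simulated counts with a common dispersion and independent sums. These lack the pairing of sums from the same library, so they cannot show how the test behaves under it. A chi-square test over 26962 genes gave 26.9 per degree of freedom between the libraries, which were treated as separate.

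Named genes were the members, Sstr5, Cort, up to 2 rises and 2 falls among called pathway genes per comparison, the 5 genes most correlated with a member of at least 200 UMIs, and genes that define splits. Ratio intervals are exact binomial, shares Wilson at 95%, and the limit of a count of 0 is 3 counts.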

Additional observations from a re-analysis of the deposited data

Results flagged for a closer look

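Cells that no gate took carried Sst at 22.1 CPM (419 UMIs) in WT replicate 1 and 16.9 CPM (294 UMIs) in WT replicate 6, above the erythroid cells of the same libraries at 17.1 and 8.39 CPM. They were looked at because these cells belong to none of the compared cell types, although they are among the kept cells over which Sst-rich cells were counted. Of these UMIs, 234 and 146 came from 5 and 6 cells with at least 10 Sst UMIs each, of which 1 and 3 expressed at least 3 interneuron markers and 4 and 2 expressed Lhx6.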

How the results depend on the processing

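Of 41 alternative counts of called genes, 27 stayed within 1.5 times the reported count. DESeq2 called fewer genes in each of the 6 comparisons: 584 instead of 1043 (MGE-type against CGE-type), 77 instead of 198 (Sst+ against Sst-), 668 instead of 1508 (cycling RGCs), 1145 instead of 2351 (cycling IPCs), 525 instead of 1137 (Neurod1) and 1587 instead of 2577 (layers). With the library as a replicate block, 340, 2461, 2365 and 3881 genes were called for Sst+, cycling RGCs, Neurod1 and layers, and the block changed no call of Sst or Sstr2. Without the filter on low counts, 401 genes were called for Sst+. Among cells without Neurod1, cycling markers or Unc5d, 1459, 680 and 1617 were called for cycling IPCs, Neurod1 and layers, where fewer cells were compared. Sst in interneurons was 206 CPM with Leiden clusters, 208 with the stricter cell filter and 204 with 1 more marker, and 157 to 187 CPM in single libraries. Sstr2 in IPCs was 112 CPM without likely doublets (99.4 to 108 in single libraries), and Sstr2 in newborn neurons 116 CPM with clusters and 108 with 1 more marker (72.2 to 89.4). The uncalled Sst difference between layers turned to 0.081 without likely doublets, 0.10 without Unc5d+ cells and 0.20 without replicate 1 (-0.19 without replicate 6), and the cause was not tested. The Sst difference between MGE-type and CGE-type cells stayed called, at 5.37 to 6.25, under every alternative that gave a test. Leaving out a library leaves 1 sum per arm, so no test or count of calls was possible there. At this depth Sstr1, Sstr3, Sstr4 and Cort, and Sstr2 within RGCs, had too few UMIs for a filtered test.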
